A study of Mus musculus with 6 samples.

Results

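The Distal-less homeobox family, Dlx1 to Dlx6, was examined in the surface ectoderm (SE) and neural ectoderm (NE) of the early mouse head. Its members were taken as every array probe whose symbol in the platform annotation is Dlx1, Dlx2, Dlx3, Dlx4, Dlx5 or Dlx6, which gave 8 of the 45281 probes, for 6 of the 19057 genes named on the array. Dlx genes encode homeodomain transcription factors, related to Drosophila Distal-less, and lie in the mouse genome as neighbouring pairs that are transcribed towards each other, Dlx1 with Dlx2, Dlx3 with Dlx4 and Dlx5 with Dlx6. The members of a pair share enhancers in the DNA between and around them and are often expressed in overlapping domains. In vertebrate embryos Dlx genes mark the non-neural ectoderm and the border of the neural plate, and later act in the branchial arches, the placodes, the epidermis, the placenta and the GABAergic interneurons of the forebrain.

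Both tissues came from wild-type CD-1 mouse embryos labelled E8.5, with no transgene or treatment in either. SE and NE were dissected apart with needles, after enzyme digestion, at the level of the forebrain, and tissue from many embryos was pooled for each sample. Biotin-labelled RNA from 3 SE and 3 NE samples was hybridised to 6 single-colour Illumina MouseWG-6 v2 bead arrays, and the study set out to find signals and transcription factors that separate the fates of these tissues. Which of NE replicates 2 and 3 is which is uncertain, because a heat map in the study exchanges their patterns relative to the labels, but this does not touch a comparison of the tissues.

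Summed signal intensity per array lay between 1.78e7 and 1.97e7, and 18916 to 19402 probes per array were detected, meaning a detection p-value below 0.05 against the negative control probes of that array. The median signal of undetected probes, the background of these arrays, was 54.4 to 57.7. Of the 10 tested surface ectoderm markers 10 were higher in SE, and of the 10 tested neural ectoderm markers 10 were higher in NE, as the labels say. Epcam among the former and Sox1 and Cdh2 among the latter were not detected often enough to test. The surface ectoderm markers Foxi2 and Grhl2 were singled out by the study from these arrays, so their direction is no independent check of the labels. Tested markers listed for mesenchyme, neural crest and blood were also mostly higher in SE, while those listed for endoderm were mostly higher in NE. The study describes the isolated tissues as free of cephalic mesenchyme. All 9 tested cephalic mesenchyme markers were higher in SE, with a summed level of 2691 to 3519 in SE and 445 to 619 in NE, while Twist2, Col1a1, Col1a2, Col3a1 and Foxc2 did not pass the detection filter. Of 7 tested neural crest markers 6 were higher in SE and 1, Sox9, was higher in NE, with sums of 6845 to 7726 in SE and 3718 to 4626 in NE and with Foxd3 not detected often enough to test. Of 4 tested blood and endothelial markers 3 were higher in SE, all of them globins, with sums of 3328 to 5949 in SE and 586 to 1632 in NE. The only tested endothelial gene, Tek, had a log2 difference of 0.28 that did not pass (limma adjusted p = 0.202). Pecam1, Cdh5, Kdr, Tie1 and Gata1 did not pass the filter. Of 5 tested genes listed for endoderm 3, Foxa1, Foxa2 and Trh, were higher in NE and 1, Cpn1, was higher in SE. The list summed to 185 to 224 in SE and 524 to 646 in NE. Apoa1 did not pass, and Sox17, Ttr and Afp were not detected often enough to test. On every array of 1 tissue, 4 of the neural ectoderm, 3 of the cephalic mesenchyme and 2 of the endoderm genes were undetected. They entered the test through the other tissue alone, so their calls are no support. Krt7, Lum and Cpn1, each detected on 1 NE array, and Snai2, detected on 2, passed the filter only through SE. Their calls are no support either. Whether NE held endoderm cells, and the part of any of these other cell types in the Dlx values below, was not tested. In such bulk samples fewer cells of a type and less RNA per cell cannot be told apart.

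Dlx signal on these arrays was higher in SE than in NE, or at background in both. Dlx3 and Dlx6 were bright in SE and weak in NE, Dlx1, Dlx2 and Dlx5 were above background in SE alone, and Dlx4 was above background in neither tissue. After background correction and quantile normalisation, 6 of the 8 probes, standing for 5 of the 6 genes, passed a filter of detection on at least 3 arrays. All 6 were higher in SE by limma at an adjusted p below 0.05 and none was higher in NE, where 17.1% of all 19590 tested probes were higher in SE. Of those 6 probes 4 were detected on all 3 SE arrays and on no NE array, so they entered the test through SE alone and had to differ, and their number is no support for a difference of the family. The fold changes of such probes are given as lower bounds, computed by raising the NE value on each array to the lowest detected signal of that array. Levels are not compared between genes, since each probe has its own efficiency.

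**Figure D1:**
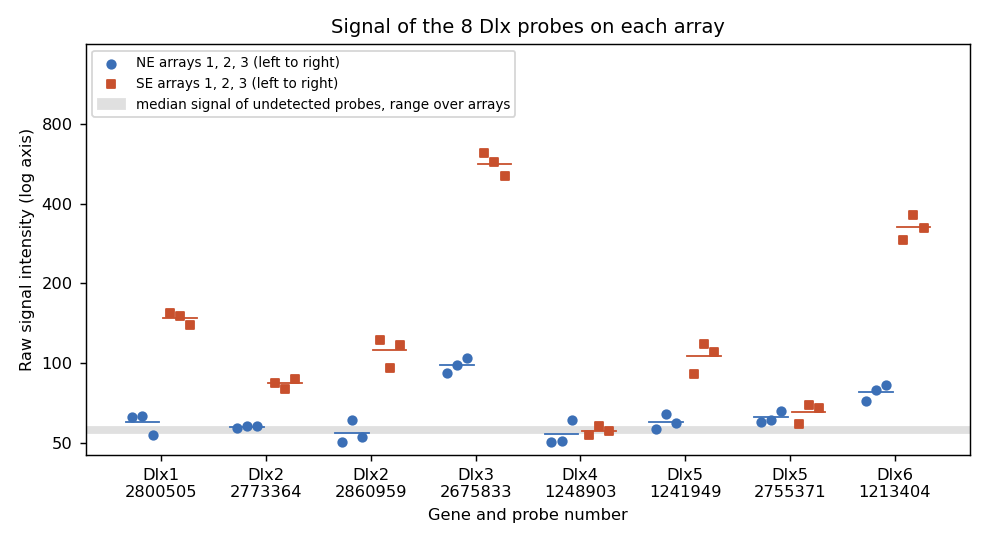
Raw signal intensity (log axis) of the 8 Dlx probes on the 3 NE arrays (blue circles) and 3 SE arrays (orange squares), with horizontal lines at the mean of each tissue and a grey band for the median signal of undetected probes on the 6 arrays (54.4 to 57.7). Dlx3 and Dlx6 stand above the band in both tissues and highest in SE, Dlx1, both Dlx2 probes and 1 Dlx5 probe stand well above it in SE alone, and Dlx4 and the second Dlx5 probe lie close to it in both.

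Dlx1 and Dlx2 are the pair best known for the differentiation and migration of forebrain interneurons. The Dlx1 probe (ILMN_2800505) gave signals of 62.6, 63.3 and 53.7 on NE arrays 1, 2 and 3 and of 154, 151 and 140 on SE arrays 1, 2 and 3. The tissues did not overlap, and no NE array detected the probe, with detection p-values of 0.130, 0.182 and 0.747 there against values listed at 0 on every SE array. On the normalised log2 scale Dlx1 had a mean of 6.78 ± 0.046 in SE and 4.50 ± 0.17 in NE (SD, n = 3 each). The limma difference was 2.28 (SE of the estimate 0.10, 95% interval 2.04 to 2.51, adjusted p = 2.55e-06), and Dlx1 was at least 3.95-fold higher in SE.

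The brighter Dlx2 probe (ILMN_2860959) read 50.5, 61.0 and 52.9 in NE and 123, 96.1 and 117 in SE. Every SE array lay above every NE array, with SE replicate 2 the lowest of the 3. Its normalised log2 mean was 6.17 ± 0.33 in SE and 4.37 ± 0.12 in NE (SD, n = 3 each), a difference of 1.81 (SE of the estimate 0.16, 95% interval 1.42 to 2.19, limma adjusted p = 1.13e-04), and the fold was at least 2.59. A second Dlx2 probe (ILMN_2773364) read 57.2, 57.9 and 58.0 in NE and 84.6, 79.8 and 87.6 in SE. It went the same way with a smaller difference, 1.03 on the log2 scale (SE of the estimate 0.096, limma adjusted p = 1.28e-04), at least 1.57-fold. SE replicate 2 was the lowest SE array for this probe too.

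The promoters of Dlx1 and Dlx2 are shown because these were the only members with a promoter sequence in the reference used. These neighbours on chromosome 2 were detected together in SE and together undetected in NE. RefSeq promoter sequences of the GRCm38.p6 build, 250 bases before to 50 after the start of the gene, were matched for 2 of the 6 members. Dlx1 lies on the plus strand (chr2:71529195-71529494) and Dlx2 on the minus strand (chr2:71546705-71547004), and each is printed 5′ to 3′ in its direction of transcription. Capitals mark the E-box CACGTG, the CCAAT box CCAAT and the GC box GGGCGG, each searched on both strands.
Dlx1: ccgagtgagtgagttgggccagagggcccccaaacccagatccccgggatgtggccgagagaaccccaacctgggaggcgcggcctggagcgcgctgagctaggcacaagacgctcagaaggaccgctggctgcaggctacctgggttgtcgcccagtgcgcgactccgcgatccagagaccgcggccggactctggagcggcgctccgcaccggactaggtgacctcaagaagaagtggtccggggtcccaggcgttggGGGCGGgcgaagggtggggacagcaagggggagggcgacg
Dlx2: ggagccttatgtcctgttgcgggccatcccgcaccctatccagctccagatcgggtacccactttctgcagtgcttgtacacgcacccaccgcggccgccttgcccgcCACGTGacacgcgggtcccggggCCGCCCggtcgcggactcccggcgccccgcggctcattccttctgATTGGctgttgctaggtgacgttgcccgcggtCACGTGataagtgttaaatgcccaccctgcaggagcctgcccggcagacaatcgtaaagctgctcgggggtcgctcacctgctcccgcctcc
Both stretches were rich in G and C, with 69.3% in Dlx1 and 66.3% in Dlx2 against a median of 52.7% over 32851 promoters of the same length. The Dlx1 window held 1 GC box, a motif found in 35.7% of those promoters, and neither an E-box nor a CCAAT box. The Dlx2 window held 1 GC box, 1 CCAAT box (in 37.4% of promoters) and 2 copies of the E-box, which 7.15% of promoters contained at least once. The homeodomain core TAATTA, present in 5.29% of promoters, was in neither window. The printed motifs do not overlap each other, and a match is a description of the letters and not of a bound site.

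Dlx3 acts in the epidermis, the hair follicle and the placenta, and its pair partner Dlx4 is the least studied member. Dlx3 and Dlx6 are among the transcription factors that the study itself picked out from these arrays, so their direction here is not independent of that choice. The Dlx3 probe (ILMN_2675833) read 92.3, 98.9 and 105 in NE and 620, 573 and 507 in SE. The tissues were far apart, and the detection p-value was listed at 0 on all 6 arrays, NE included. The normalised log2 mean was 9.09 ± 0.093 in SE and 5.80 ± 0.088 in NE (SD, n = 3 each). Dlx3 was thus higher in SE by 3.29 on the log2 scale (SE of the estimate 0.086, 95% interval 3.09 to 3.49, limma adjusted p = 2.97e-07), or 9.79-fold.

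Dlx4 gave no signal above background in either tissue. Its single probe (ILMN_1248903) read 50.5, 51.1 and 61.2 in NE and 53.5, 58.1 and 55.7 in SE, so the tissues overlapped. Detection p-values ran from 0.304 to 0.825 in NE and from 0.441 to 0.668 in SE. The probe did not enter the test, and with 1 probe for the gene a level of Dlx4 below the sensitivity of that probe was not detectable.

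Dlx5 and Dlx6 pattern the lower jaw from the branchial arches, and Dlx5 marks the anterior rim of the neural plate in vertebrate embryos. The Dlx6 probe (ILMN_1213404) read 72.2, 79.3 and 82.7 in NE and 292, 363 and 323 in SE. NE was low but above background on every array, with detection p-values of 0.00436, 0 and 0, and no SE array came near the NE range. The normalised log2 mean was 8.21 ± 0.19 in SE and 5.18 ± 0.13 in NE (SD, n = 3 each), a difference of 3.03 (SE of the estimate 0.12, 95% interval 2.75 to 3.30, limma adjusted p = 1.40e-06), or 8.16-fold.

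The brighter Dlx5 probe (ILMN_1241949) read 56.6, 64.6 and 59.3 in NE and 91.1, 118 and 111 in SE. It was undetected on every NE array (detection p-values 0.379, 0.140 and 0.404) and detected on every SE array, of which replicate 1 was the lowest, as it was for Dlx6. The normalised log2 mean was 6.05 ± 0.32 in SE and 4.49 ± 0.12 in NE (SD, n = 3 each). The difference was 1.56 (SE of the estimate 0.16, 95% interval 1.19 to 1.93, limma adjusted p = 2.02e-04), and Dlx5 was at least 2.38-fold higher in SE. The second Dlx5 probe (ILMN_2755371) did not show this. It read 60.3, 61.3 and 65.9 in NE and 59.3, 69.8 and 67.8 in SE, overlapping between tissues, and was detected on 1 SE array alone. The SE level of Dlx5 therefore rests on 1 of its 2 probes.

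**Figure D2:**
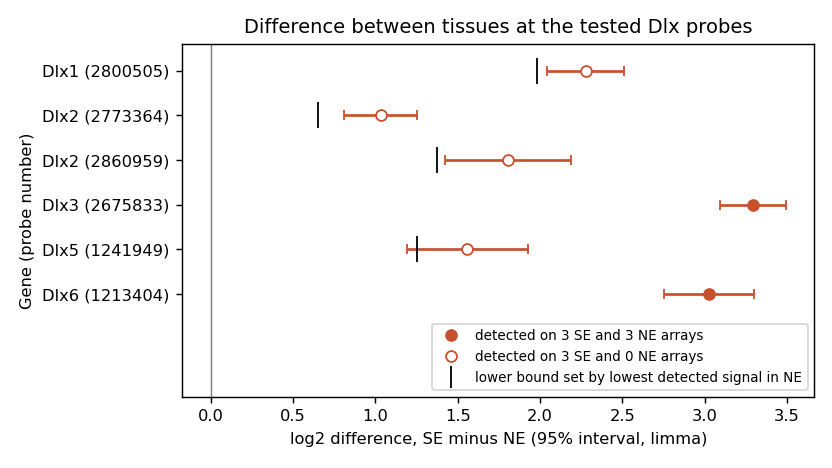
Difference between the mean normalised log2 values of 3 SE and 3 NE arrays for the 6 tested Dlx probes, with 95% intervals from limma. Filled points are the probes detected in both tissues (Dlx3 3.29, Dlx6 3.03), open points those undetected on all NE arrays, and black ticks mark the log2 of their lower-bound folds, from 1.57-fold at a Dlx2 probe to 3.95-fold at Dlx1.

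Noncoding transcripts of the Dlx loci were at background. The probe for Dlx1as, an RNA antisense to Dlx1, read 51.4, 54.6 and 55.8 in NE and 56.0, 56.7 and 57.9 in SE. The probe for Dlx6os2, from the opposite strand of Dlx6, read 56.2, 52.9 and 48.5 in NE and 43.2, 55.8 and 45.1 in SE. Neither was detected on any array, and Dlx6os1 was not analysed here.

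Whether the members of a pair differed by the same amount between tissues was asked from the difference of their log2 values within each array, taking the brightest probe of each gene. For Dlx1 minus Dlx2 this difference was 0.32, 0.081 and 0.014 in NE and 0.46, 0.99 and 0.38 in SE. The SE values all lay above the NE values, by a mean of 0.47 (SE of the estimate 0.17, 95% interval 0.078 to 0.87), which did not pass limma's test over 6111 adjacent gene pairs (adjusted p = 0.0502). Both genes were at background on every NE array, so this shift sets the SE readings of 2 different probes against each other and does not compare the genes' change between tissues. For Dlx6 minus Dlx5 the within-array difference was 0.60, 0.60 and 0.84 in NE and 2.30, 2.07 and 2.09 in SE. This shift of 1.47 (SE of the estimate 0.13, 95% interval 1.18 to 1.75) passed the limma test with an adjusted p of 1.47e-05, and 47.6% of all adjacent pairs passed it in one direction or the other. Dlx5 too was at background in NE, which limits how far its measured difference could go, so the larger difference at Dlx6 is one of measured signal and not of the genes' true folds. The Dlx3 and Dlx4 pair was not tested because Dlx4 was not detected.

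The genes beside the Dlx pairs did not share their difference as a rule. Of the 18 protein-coding genes nearest to the 3 pairs, 3 on each side, 15 were tested, and 4 were higher in SE, 1 was higher in NE and 10 did not pass, with a median log2 difference of 0.18. Over all 10603 tested genes, each at its brightest probe, 18.7% were called for SE and 21.6% for NE, with a median of -0.021. Itga3, the integrin alpha 3 subunit of epithelial laminin receptors, lies next to Dlx3 and was 8.56-fold higher in SE (log2 difference 3.10, limma adjusted p = 5.48e-07). On the far side of Dlx4, Fam117a was 1.42-fold higher in SE (adjusted p = 0.00567) and Kat7, a histone acetyltransferase, had a difference of 0.035 that did not pass, while Samd14, beyond Itga3, was lower in SE by a log2 difference of -0.36 (adjusted p = 0.0164). Pdk2 and Tac4 did not pass the detection filter.

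Beside Dlx6, the gene Dync1i1, a cytoplasmic dynein intermediate chain within which lie known enhancers of Dlx5 and Dlx6, was 7.48-fold higher in SE (log2 difference 2.90, limma adjusted p = 2.39e-06), and its tested probes ran from 1.44 to 2.90. The other genes around that pair did not pass. Slc25a13 and Sem1, which lie between Dync1i1 and Dlx6, had log2 differences of 0.34 and 0.18, and Sdhaf3, Tac1 and Asns beyond Dlx5 had differences of -0.035, -0.25 and 0.18. Around Dlx1 and Dlx2, Slc25a12, a mitochondrial aspartate and glutamate carrier, was detected on 2 NE arrays and was 1.42-fold higher in SE (limma adjusted p = 0.0343). It passed the filter only through SE, so its call is no support. Hat1, Metap1d, Itga6 and Pdk1 had log2 differences from -0.15 to 0.21 that did not pass. The 2 tested Itga6 probes differed in direction, from -0.27 to 0.21.

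**Figure D3:**
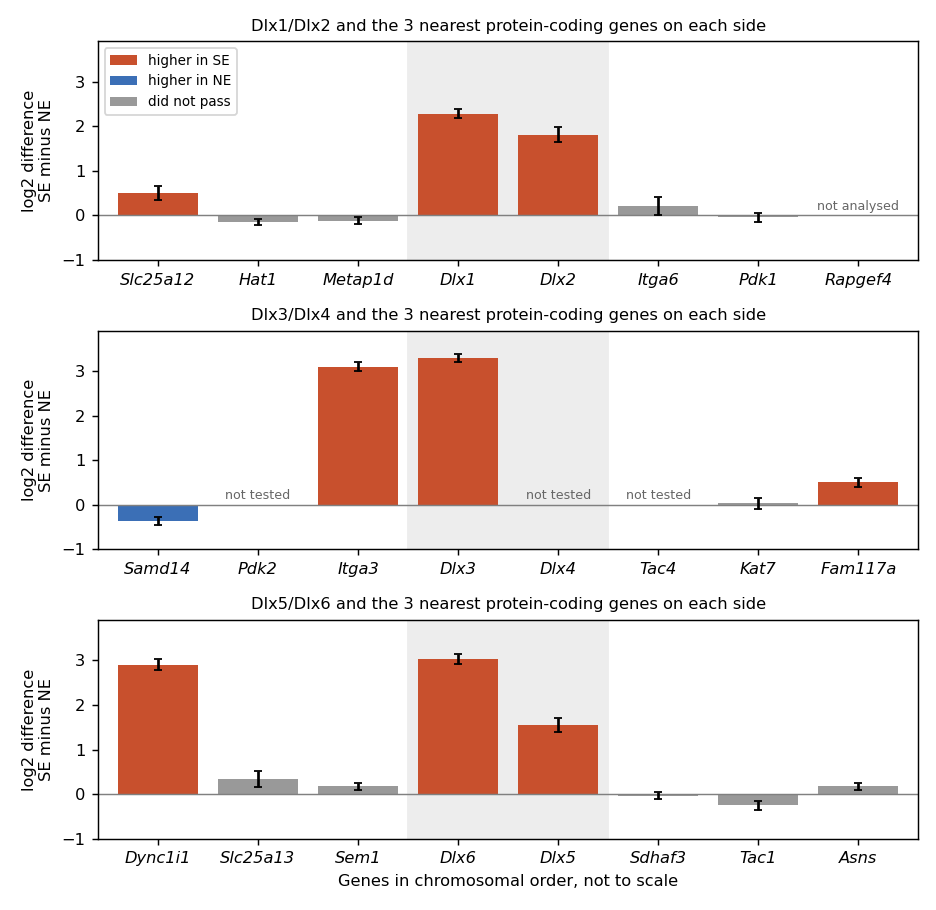
Difference between SE and NE in normalised log2 value (bars, with the standard error of the estimate) for each Dlx pair, shaded, and its 3 nearest protein-coding genes on each side in chromosomal order, not to scale. Besides the Dlx genes, Itga3 (3.10) and Dync1i1 (2.90) stand out, and most other neighbours lie near 0.

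The NE samples held a low signal of the 2 Dlx genes that were detected above background there. For Dlx3 the mean NE signal above background was 8.39% of the mean SE signal above background, and for Dlx6 it was 8.25%. The same share was computed for the 9 surface ectoderm markers that were detected on all 6 arrays, where it ran from 1.69% for Foxi2 to 21.8% for Tfap2a, with a median of 8.31%. Both Dlx genes thus fell inside the range of these markers and close to its median. They also fell inside the ranges of mesenchyme markers (6.00% to 61.6%, median 22.3%) and neural crest markers (8.17% to 56.3%, median 34.2%) chosen in the same way. For the 3 globins the share was higher, 11.6% to 27.5%. The range alone therefore does not tie the Dlx genes to surface ectoderm markers. Whether this signal came from NE cells or from SE cells carried along in dissection was not tested.

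**Figure D4:**
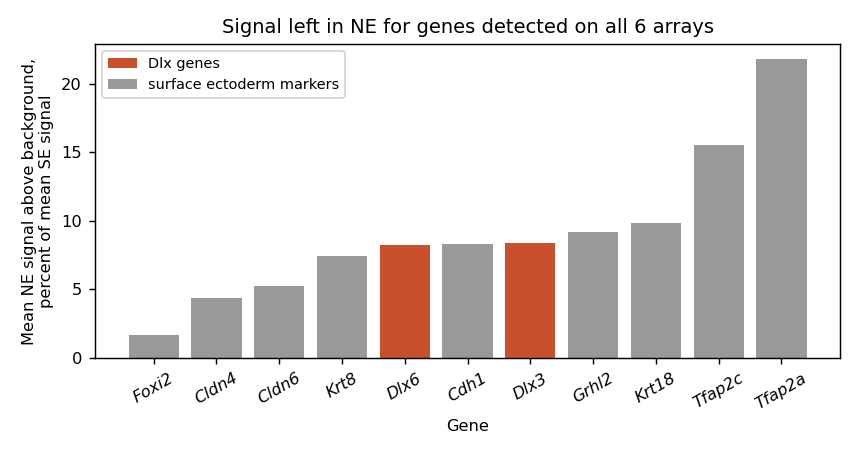
Mean NE signal above background as a percent of mean SE signal above background (bars start at 0) for Dlx3 and Dlx6 (orange) and for the 9 surface ectoderm markers detected on all 6 arrays (grey). Dlx3 (8.39%) and Dlx6 (8.25%) sit in the middle of the markers, between Krt8 and Grhl2.

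Genes whose values over the 6 arrays were closest to those of each Dlx gene were found as the smallest root mean square distance between centred log2 values. Closest to Dlx3 were Ccdc80 (0.071), the espin gene Espn (0.077), which encodes an actin-bundling protein, and the simple-epithelium keratin Krt18 (0.10). Closest to Dlx6 were the epithelial transcription factor Ovol1 (0.12), the epithelial splicing regulator Esrp2 (0.12) and podoplanin, Pdpn (0.13). Closest to Dlx1 were the basement membrane collagen Col4a2 (0.046), the glutamate decarboxylase Gad2 (0.069) and Gprc5a (0.070). Closest to Dlx2 were Chst5 (0.13), the myosin light chain Myl9 (0.15) and the matrix metalloproteinase Mmp11 (0.15), and closest to Dlx5 were Lurap1l (0.11), Fgf16 (0.13) and Tagln2 (0.13). With 3 arrays a tissue, this likeness mostly means a similar size of difference between SE and NE.

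Transcription factors of the non-neural ectoderm and the plate border, where Dlx genes act beside AP-2 and Msx factors, were mostly higher in SE. Of 18 listed genes 14 were tested, and 12 were higher in SE, none in NE and 2 did not pass, with a median log2 difference of 2.44. Over all 10603 tested genes 18.7% were called for SE and 21.6% for NE, which also stands beside the list counts below. In each list, a gene undetected on every array of 1 tissue entered the test through the other tissue alone. Such a gene had to differ, and its call is no support for a difference of the list. Gata2 and Gata3, each detected on all 3 SE arrays and 1 NE array, likewise passed the filter only through SE. Their calls are no support either. Foxi2 was 52.2-fold higher in SE, Tfap2b 12.6-fold and Grhl2 9.54-fold, and Trp63, the regulator of stratified epithelium, was undetected in NE and at least 21.1-fold higher in SE. Msx1 was 7.37-fold higher, and the AP-2 genes Tfap2a and Tfap2c had log2 differences of 2.24 and 2.73. The genes that did not pass were Msx3 (0.15, adjusted p = 0.559) and Six4 (0.32, adjusted p = 0.130), and Msx2, Foxi1 and Foxi3 were not detected often enough to test. Foxi2, Grhl2, Tfap2a and Tfap2c also stand in the surface ectoderm marker list, and Tfap2b stands in the neural crest list, whose tested markers were mostly higher in SE. The study itself singled out Foxi2 and Grhl2 from these arrays, so their direction here is not independent of that choice. Probes of a gene differed in size, with log2 differences from 1.05 to 3.66 over 6 tested probes of Tfap2b, from 0.72 to 2.24 over 3 of Tfap2a and from 1.59 to 2.88 over 2 of Msx1.

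BMP signals induce Dlx genes in the ectoderm of several vertebrates. Of 11 listed BMP ligands and immediate response genes 8 were tested, and 6 were higher in SE, none in NE and 2 did not pass, with a median of 1.10. Bmp4 was 7.34-fold higher in SE, Bmp7 3.23-fold, the response gene Id1 2.55-fold, and Bmp2, undetected in NE, at least 1.69-fold. The response genes Id2 and Id3, relatives of Id1, had log2 differences of -0.14 each that did not pass (limma adjusted p = 0.194 and 0.329). The 3 tested Id2 probes differed in direction, with log2 differences from -0.14 to 0.39. The other tested Bmp4 probe had a smaller difference of 1.75.

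Genes tied to Dlx function in forebrain interneurons included calls in both directions. Of 16 listed genes 7 were tested, and 5 were higher in SE and 2 in NE, with a median of 0.85. Over all tested genes 18.7% were called for SE and 21.6% for NE. Gad2 and Nkx2-1 were each detected in 1 tissue alone, so their calls are no support. Gad1 and Lhx8, each detected on 1 NE array, passed the filter only through SE, and their calls are no support either. The GABA-synthesising enzyme Gad2, a target of Dlx factors in the mouse forebrain, was undetected in NE and at least 3.54-fold higher in SE (limma adjusted p = 1.54e-06). Its relative Gad1 was detected on 1 of 3 NE arrays and was higher in SE (adjusted p = 0.00110), at least 2.00-fold with NE raised to its lowest detected signal. Isl1 was 4.31-fold higher in SE, Meis2 had a log2 difference of 0.85 and Lhx8, detected on 1 NE array, of 0.47. The ventral forebrain gene Nkx2-1, undetected in SE, and the zinc finger gene Sp8 were higher in NE, with log2 differences of -1.98 and -0.64. Gsx1, Gsx2, Slc32a1, Lhx6 and Sp9 did not pass the detection filter.

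Of the 15 genes listed for the branchial arches 7 were tested, and 4 were higher in SE, none in NE and 3 did not pass, with a median of 1.00. Of these 4, Alx1 and Alx4 were undetected on all NE arrays, so their calls are no support. Those higher were the homeobox genes Alx4 (at least 15.4-fold), Alx1 (at least 1.91-fold) and Prrx1 (3.13-fold) and the MADS-box gene Mef2c (2.01-fold), and Alx4, Alx1 and Prrx1 also stand in the list of mesenchyme markers given above. The Alx4 bound rests on the brighter of 2 tested probes, whose log2 differences were 4.26 and 0.41. Edn1, the arch signal upstream of Dlx5 and Dlx6, had a log2 difference of -0.25, Gsc of -0.44 and Gbx2 of -0.73, and none of these passed. The arch genes Hand1, Hand2, Barx1 and Pitx1 were not detected often enough to test.

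Of 13 genes listed for the epidermal and placental roles of Dlx3, 5 were tested, and 3 were higher in SE, 1 was higher in NE and 1 did not pass, with a median of 2.63. Of those 3, Trp63 and Krt14 were undetected on every NE array and Gata3 was detected on 1. All 3 passed the filter only through SE, so their calls are no support. Besides Trp63, the basal keratin Krt14 was undetected in NE and at least 8.28-fold higher in SE, and Gata3, detected on 1 NE array, was at least 5.72-fold higher in SE. The cornified envelope gene Lor had a log2 difference of -0.79, higher in NE, and Krt10 one of 0.020 that did not pass. The keratins Krt1 and Krt5 and the genes Ivl, Hoxc13, Esx1 and Pgf were not tested. Of 7 genes listed for proteins that bind Dlx or Msx factors, 5 were tested. Msx1 was higher in SE, Ndn was higher in NE with a log2 difference of -0.50, and Maged1 (0.23), Pja1 (0.20) and Grip1 (0.18) did not pass, for a list median of 0.20. These calls of 1 of 5 in each direction are near the shares over all tested genes, 18.7% for SE and 21.6% for NE. The 5 tested Grip1 probes differed in direction, with log2 differences from -0.37 to 0.23, and the 3 of Pja1 ran from 0.20 to 0.46.

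**Figure D5:**
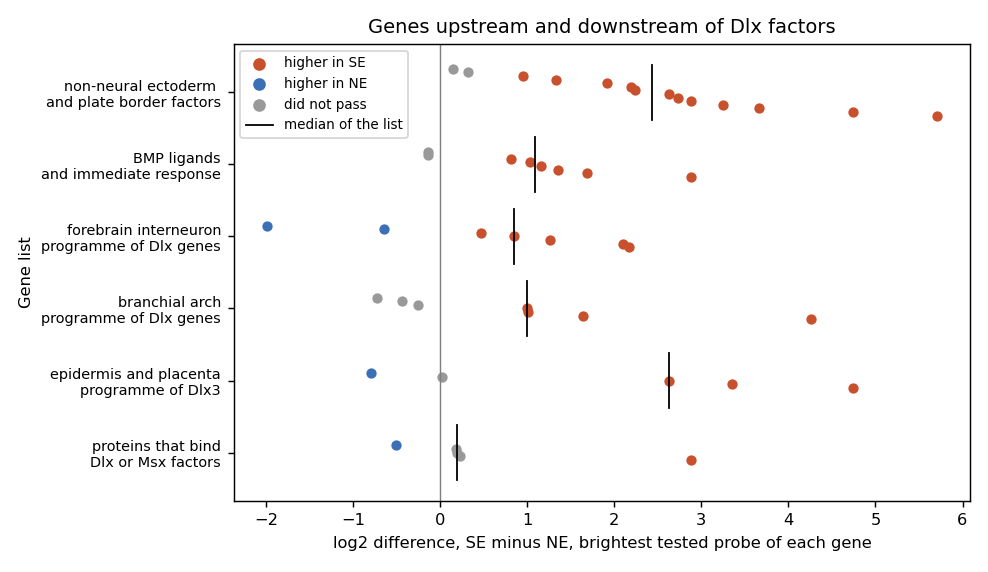
Difference between SE and NE in normalised log2 value for each tested gene of the 6 lists, coloured by whether it was higher in SE, higher in NE or did not pass, with a black line at the median of each list. Medians run from 0.20 for the binding proteins to 2.63 for the epidermal and placental genes, and the interneuron list holds genes on both sides of 0.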

How the data were processed

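RNA of 3 SE and 3 NE pools was measured. The authors scanned the arrays and used BeadStudio for the export (version not given in the sources used here). As deposited, the array table holds a linear signal intensity without normalization and a detection p-value for each probe. The deposited scaled intensity values equalled these signals times 1 constant per array and served as an alternative. Columns were matched to samples through the sample descriptions. Probe symbols came from the platform annotation, which gave 1 symbol to 34885 probes, several to 18 and none to 10378.

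Signals were background-corrected with normexp from the detection p-values, given an offset of 16 and quantile-normalised (neqc, limma 3.58.1 in R 4.3.3), which compresses the folds of dim probes. Probes detected at p below 0.05 on at least 3 arrays were fitted by lmFit and eBayes, SE against NE without a block, with Benjamini-Hochberg adjustment over all 19590 probes. This called 7310 probes, 3352 higher in SE and 3958 higher in NE. The fit and adjustment alone were tested on simulated normalised values, without the background correction, normalisation or filter. Replicates are separate pools, and 3 arrays a tissue limit the precision.

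The brightest tested probe stood for a gene. All member probes were named, with the 3 most alike genes per tested member, the neighbours, and up to 4 called genes a list by size of difference, beside genes set by name. Members and lists were chosen with earlier results of these data known. Alternatives changed the background correction, offset, normalisation, filter, moderation and block, and left out each array.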

Additional observations from a re-analysis of the deposited data

How the results depend on the processing

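All 6 Dlx differences kept their direction and their call under every alternative that gave a value. For the 4 probes detected on no NE array, of Dlx1, Dlx2 and Dlx5, this is no support, since they had to differ. Only Dlx3 and Dlx6 were detected in both tissues. The number of Dlx probes called was 6 except where the filter removed them: it was 2 with detection required on all 6 arrays, and it ran from 2 to 6 when 1 array was left out. It was 2 without any 1 of the SE arrays, since Dlx1, Dlx2 and Dlx5 then had fewer than 3 arrays that detected them, and 6 again with detection on at least 2 of the 5 arrays left, an alternative chosen after seeing the data. Sizes depended on the background. Without background correction the log2 differences were 1.14 (Dlx1), 0.87 and 0.45 (Dlx2), 2.41 (Dlx3), 0.70 (Dlx5) and 1.91 (Dlx6), with an offset of 50 they were 1.34, 0.96 and 0.49, 2.69, 0.83 and 2.23, and with the deposited scaled values 1.38, 1.10 and 0.61, 2.59, 0.89 and 2.13.

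The shift between Dlx1 and Dlx2 stood near the threshold. Both genes were at background on all NE arrays, so no value of it compares their change between tissues. It passed without background correction (0.27, adjusted p = 0.0493), with an offset of 50 (0.38, adjusted p = 0.0152), with detection at p below 0.01 (0.47, adjusted p = 0.0460) and with the other Dlx2 probe (1.25, adjusted p = 6.73e-05). It ran from 0.41 without NE replicate 3 to 0.57 without NE replicate 1, and from 0.28 without SE replicate 2 to 0.59 without SE replicate 3 with detection on at least 2 arrays, and passed without NE replicate 1 (adjusted p = 0.0454) or SE replicate 3 (adjusted p = 0.0409). It did not pass with median centring (adjusted p = 0.0521), the scaled values (0.0696) or no moderation (0.160). The Dlx6 and Dlx5 shift passed throughout, from 1.21 to 1.56.

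Same-numbered SE and NE arrays did not deviate together (correlations of -0.037, -0.031 and -0.020), so the data show no shared deviation by number, although the study numbers its replicate experiments across both tissues. With the replicate number as a block the 6 Dlx probes were still called, with adjusted p from 1.04e-05 for Dlx6 to 7.33e-04 for the dimmer Dlx2 probe, and 6507 probes were called in all. Here too, only Dlx3 and Dlx6 were detected in both tissues. With NE replicates 2 and 3 exchanged, chosen after seeing the data, the block called 6620. The block left the Dlx1 and Dlx2 shift unpassed (adjusted p = 0.0579). A chip block was not run because the files name no chip.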
